A study of Homo sapiens with 10 samples.

Results

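MicroRNA host genes are long non-coding RNA (lncRNA) genes whose transcripts contain, in an exon or an intron, the hairpin from which a microRNA is cut. They were chosen here by name and class: every lncRNA row of the count table whose GENCODE symbol begins with MIR and ends with HG. That took 81 of the 78932 gene identifiers in the table. A further 2 lncRNA genes with such symbols have no row, and 1 matching symbol belongs to a pseudogene and was left out. Of the 81 host genes 14 had 0 counts in all 10 libraries, 30 had counts too low to test, and 37 were tested.

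The series asks what loss of the RNA named CLIPPER does to heart muscle cells. Cells of the human embryonic stem cell line H1 were differentiated into beating cardiomyocytes, and on day 9 they were given 50 nM of a GapmeR, a chimeric antisense oligonucleotide through which RNase H degrades the matching RNA. The 5 knockdown libraries are from cells given the CLIPPER GapmeR and the 5 control libraries from cells given the control GapmeR, both delivered with Lipofectamine RNAiMAX and both harvested 48 hours later for total RNA sequencing. All libraries come from 1 cell line, and nothing in the labels says that replicates were separate cultures, so the p-values measure the spread between these libraries, which may be technical. The annotation used has no gene called CLIPPER, and the target's own level, which would check the labels, was not analysed here. A library held between 32879710 and 45052044 counts. Levels are given in CPM (counts per 1e6 counts of the library, scaled by the trimmed mean of M-values). Before that scaling 3 counts, taken as the floor of detection, stand for 0.0666 to 0.0912 CPM. These floors cover counting error only. The first principal component held 85.2% of the variance and separated the groups. Knockdown replicate 2 lay nearest the controls on it (49.5), then replicate 1 (93.3), with the other knockdown libraries at 119 to 140 and the controls at -108 to -102.

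The labelled cell type was checked against its markers. All 8 cardiomyocyte markers were tested and were abundant in both groups, TNNT2 (cardiac troponin T) at a mean of 1500 CPM in knockdown and 4430 CPM in control libraries. The summed level of the 8 was 9740 to 15900 CPM in knockdown and 25200 to 34700 CPM in control libraries, and 7 of them were lower in the knockdown (MYL7 did not pass the test). In bulk RNA, fewer cells of a type and less RNA per cell cannot be told apart.

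A microRNA host transcript is usually made by RNA polymerase II as a long primary transcript. The Microprocessor, made of DROSHA and DGCR8, cuts the hairpin out of it in the nucleus, exportin 5 carries the hairpin to the cytoplasm, and Dicer trims it to the mature microRNA that an Argonaute protein holds. The mature strand finds target mRNAs mainly through its seed, bases 2 to 8, so microRNAs with the same seed share many targets even when they come from different host genes. In heart muscle miR-1 and miR-133a are the classic muscle microRNAs, and the let-7 family accumulates as cells leave the embryonic state.

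The mature sequences below are those of the hosts on which the results turn, shown because the seed, in capitals, decides which hosts belong to one family. Of the 64 microRNA genes inside tested hosts 62 matched a mature sequence of RefSeq (GRCh38.p14), and 11 seeds came from more than one tested host. The let-7 seed GAGGUAG is the most widely shared, by 4 tested hosts: MIR100HG and MIRLET7A1HG hold let-7a genes, MIR99AHG holds let-7c and MIRLET7IHG holds let-7i. The seeds of miR-100 and miR-99a are identical too, as are those of miR-92a (MIR17HG) and miR-367 (MIR302CHG).
let-7a-5p: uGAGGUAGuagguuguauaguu
let-7c-5p: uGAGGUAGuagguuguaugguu
let-7i-5p: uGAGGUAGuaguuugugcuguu
miR-100-5p: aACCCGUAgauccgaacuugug
miR-99a-5p: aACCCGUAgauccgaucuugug
miR-125b-5p: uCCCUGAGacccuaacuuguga
miR-1-3p: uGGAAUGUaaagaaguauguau
miR-133a-3p: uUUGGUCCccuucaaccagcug
miR-92a-3p: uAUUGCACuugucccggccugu
miR-367-3p: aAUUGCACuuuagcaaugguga
miR-302a-3p: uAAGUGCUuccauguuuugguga
miR-17-5p: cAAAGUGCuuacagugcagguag
miR-29b-3p: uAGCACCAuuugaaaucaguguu
miR-29c-3p: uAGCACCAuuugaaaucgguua
miR-23a-3p: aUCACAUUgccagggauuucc
miR-27a-3p: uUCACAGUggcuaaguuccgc
miR-195-5p: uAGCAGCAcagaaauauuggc
miR-497-5p: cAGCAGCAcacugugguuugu
miR-181a-5p: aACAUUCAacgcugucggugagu
miR-9-5p: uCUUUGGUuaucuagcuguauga
miR-34a-5p: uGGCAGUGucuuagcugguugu
miR-4453: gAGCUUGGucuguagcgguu

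The host transcripts moved in both directions. Among the 37 tested hosts 19 were higher and 11 lower in the knockdown, and 7 did not pass the test (edgeR's quasi-likelihood test, Benjamini-Hochberg adjustment over 21033 genes, threshold 0.05). That is 81.1% called, beside 79.7% of all tested genes and 76.1% of the tested lncRNA genes, so the share of hosts that changed is near the background. Hosts were called higher in 51.4% of cases and lower in 29.7%, beside 40.1% and 39.6% over all tested genes and 53.8% and 22.3% over lncRNA genes. Among tested protein-coding genes 81.8% were called. The median log2 fold change was 0.44 for the hosts, 0.71 for the other lncRNA genes and 0.01 for all tested genes. Fold changes of at least 2 were reached by 23 called hosts, and such calls made up 48.6% of all tested genes and 58.3% of the lncRNA genes. The groups did not overlap in 26 hosts, and in 67.5% of all tested genes. A total of 27 hosts exceeded the filter's cut-off of 0.264 CPM, taken before scaling, in all 10 libraries (14 higher, 8 lower, 5 not passing). Of the other 10, 8 exceeded it in every library of one group but not in every library of the other, so that their entry into the test and their direction are not independent. These were MIR29B2CHG, MIR194-2HG, MIR378D2HG, MIR181A1HG, MIR181A2HG and MIR3677HG on the knockdown side, and MIR122HG and MIR924HG on the control side. MIR9-3HG exceeded it in 4 control libraries but only 1 knockdown library, so the same limit holds for that host.

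**Figure D1:**
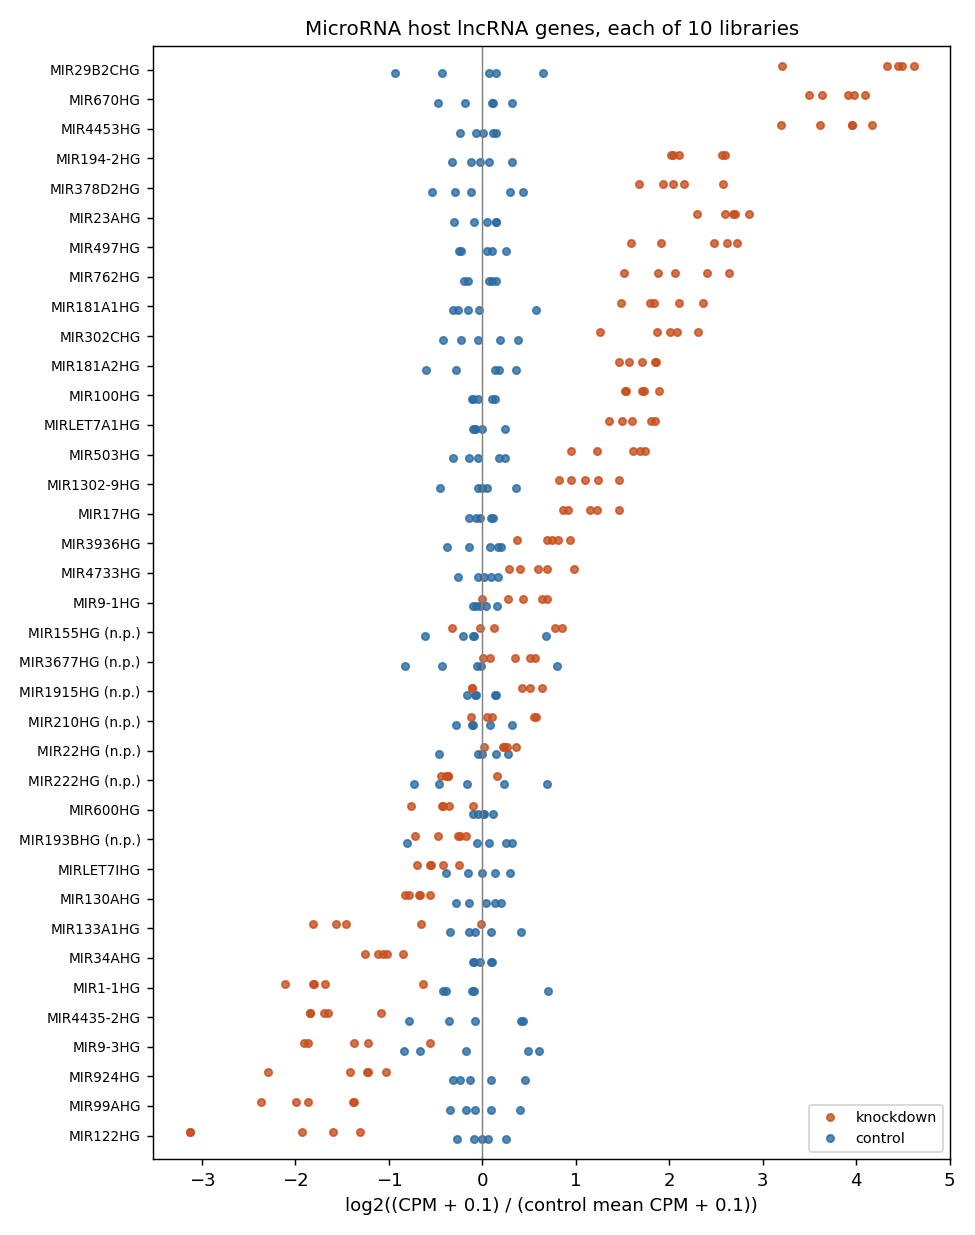
Each row is 1 of the 37 tested host genes, ordered by log2 fold change, and each dot is 1 library (knockdown in orange, control in blue), drawn as the log2 ratio of its CPM plus 0.1 to the control mean plus 0.1; n.p. marks genes that did not pass the test. The knockdown dots lie right of all control dots from MIR29B2CHG down to MIR4733HG, mix with them in the middle of the plot, and lie to the left of the controls for most of the 11 lower hosts.

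Together the host transcripts took 0.0419% to 0.0471% of all counts in knockdown libraries and 0.0236% to 0.0264% in control libraries. As a share of lncRNA counts they were 1.44% to 1.57% in knockdown and 1.31% to 1.44% in control libraries. MIR100HG alone accounted for 24.0% to 25.6% of host counts in knockdown libraries, against 12.2% to 14.7% in control libraries. Per kilobase of exon the order of mean levels differed between the groups. In the knockdown MIR670HG (16.8 CPM per kb) and MIR4453HG (12.6) headed the list, followed by MIR22HG (10.5) and MIR1915HG (10.2). In the controls MIR1-1HG (9.13 CPM per kb) and MIR22HG (8.98) came first, followed by MIR1915HG at 8.28.

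Opposite directions were seen in a pair of hosts that carry sister clusters of miR-99/100, let-7 and miR-125b on different chromosomes. MIR100HG (ENSG00000255248, chr11:122028325-122556721, GRCh38, minus strand) holds miR-125b-1, let-7a-2 and miR-100 in introns, and is known as a transcript that accumulates in several cancers. Its level in the 5 knockdown libraries was 97.4, 96.9, 111, 124 and 110 CPM, against 36.8, 36.0, 31.2, 32.4 and 30.9 CPM in the 5 control libraries. Every knockdown library lay above every control, by a log2 fold change of 1.69 ± 0.0951 (SE), 3.23-fold, adjusted p = 4e-08. MIR99AHG (ENSG00000215386, chr21:15928296-16646364, plus strand), with 718 kb the longest of the tested hosts, holds miR-99a in an intron and let-7c and miR-125b-2 in annotated exons. It had 14.0, 14.1, 9.11, 7.0 and 9.99 CPM in knockdown libraries and 28.8, 32.3, 38.9, 34.6 and 48.4 CPM in controls. Here every knockdown library lay below every control, and the gene was 3.36-fold lower (log2 fold change -1.75 ± 0.202, adjusted p = 5.9e-06).

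The ratio of both transcripts within a library needs no scaling between libraries. The log2 ratio of MIR100HG to MIR99AHG counts (0.5 added to each) averaged 3.36 ± 0.58 in the knockdown and -0.11 ± 0.39 in the controls (SD, n = 5 each). The difference of 3.47 had an exact permutation p of 0.00794 (two-sided), the smallest that 252 labelings of 10 libraries can give, and 0.0317 adjusted over the 4 same-family pairs compared. These pairs were chosen after the levels had been seen.

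The other let-7 hosts also went in different directions. MIRLET7A1HG (chr9:94166258-94200905, plus strand), which carries let-7a-1, let-7f-1 and let-7d in its exons, had 19.4, 18.8, 16.4, 15.2 and 13.8 CPM in knockdown and 4.97, 5.30, 6.32, 5.04 and 5.05 CPM in control libraries. It was 3.14-fold higher without overlap (log2 fold change 1.65 ± 0.122, adjusted p = 2e-07). MIRLET7IHG (chr12:62602752-62622213, plus strand), host of let-7i, was 1.41-fold lower, at 2.46 ± 0.304 CPM in knockdown and 3.49 ± 0.642 CPM in control libraries (SD, n = 5 each). Its groups overlapped, and its adjusted p of 0.011 became 0.1 with upper-quartile factors. MIRLET7BHG, host of let-7b and let-7a-3, had too few counts to test, 32 over the knockdown and 24 over the control libraries.

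**Figure D2:**
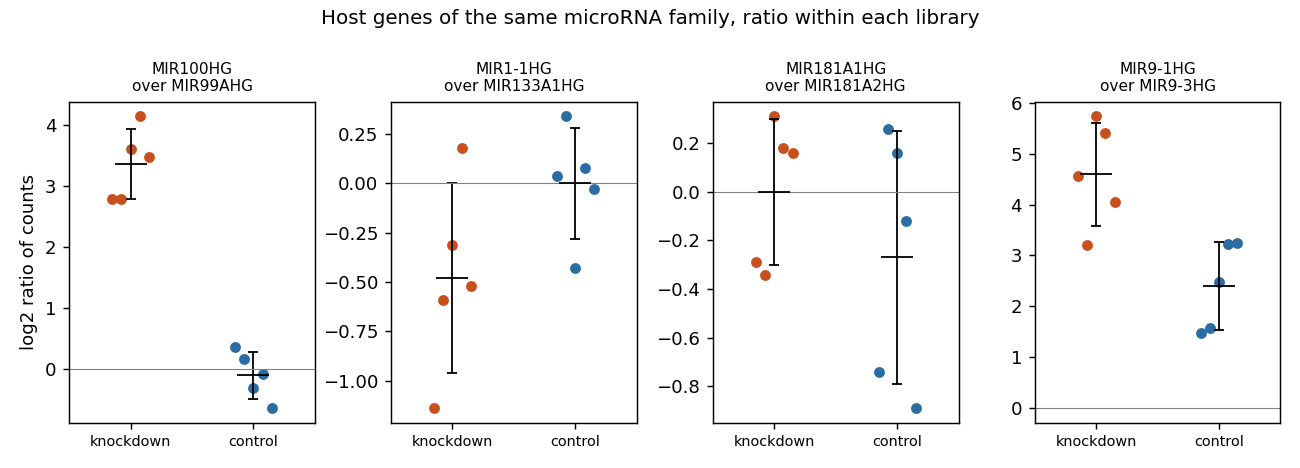
Each panel gives the log2 ratio of the counts of a pair of host genes of the same microRNA family, 1 dot per library (knockdown left, control right), with the mean and SD as bars. MIR100HG over MIR99AHG lies at 2.78 to 4.14 in knockdown libraries and at -0.65 to 0.35 in control libraries, whereas the miR-1 and miR-181 pairs overlap between the groups.

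The hosts of the muscle microRNAs were lower. MIR1-1HG (ENSG00000174407, chr20:62550447-62570767, plus strand) holds miR-1-1 and miR-133a-2 in introns, microRNAs made in heart and skeletal muscle. It had 3.11, 7.19, 3.15, 3.42 and 2.52 CPM in knockdown libraries and 10.5, 18.3, 8.56, 10.4 and 8.37 CPM in controls. All knockdown values lay below all controls, with replicate 2 the highest of its group on both sides, and the fold change was 2.88-fold lower (log2 fold change -1.53 ± 0.300, adjusted p = 0.00047). MIR133A1HG (ENSG00000265142, chr18:21825487-21831539, minus strand), host of miR-1-2 and miR-133a-1 in its exons, had 6.89, 10.8, 3.90, 3.03 and 3.62 CPM in knockdown and 10.3, 14.5, 11.6, 9.83 and 8.55 CPM in control libraries. Knockdown replicate 2 lay inside the control range. The log2 fold change was -0.94 ± 0.312 (adjusted p = 0.015), it was -1.65 without knockdown replicates 1 and 2, and the adjusted p was 0.056 when all genes with at least 1 count were tested. The span of MIR133A1HG meets that of MIB1, a more abundant coding gene on the opposite strand, without shared exonic bases. MIB1 was 2.73-fold lower, at 63.1 ± 13.2 CPM in knockdown and 173 ± 4.1 CPM in control libraries. Whether reads from MIB1 introns entered the counts of this host was not tested.

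Both muscle hosts give the same mature miR-1 and miR-133a. Their log2 ratio (MIR1-1HG over MIR133A1HG) was -0.48 ± 0.48 in the knockdown and -0.00 ± 0.28 in the controls (SD, n = 5 each), a difference of -0.48 that did not pass the test (two-sided exact permutation p = 0.103, or 0.138 adjusted over the pairs). The cardiomyocyte markers were lower beside these hosts (7 of 8, with the sums given above). In replicate 2, the highest of its group in MIR1-1HG and MIR133A1HG, their sum was also the highest of its group (15900 CPM in the knockdown, 34700 CPM in the controls). In MIR1-1HG control replicates 2, 1 and 4 came first (18.3, 10.5 and 10.4 CPM), as in the sums (34700, 31200 and 30100 CPM). Its knockdown replicates 2, 4 and 3 also came first (7.19, 3.42 and 3.15 CPM), as in the sums (15900, 12900 and 12700 CPM). The remaining libraries of each group changed places. In MIR133A1HG the libraries other than replicate 2 did not keep the order of the sums. Knockdown replicate 1 had the lowest sum of its group (9740 CPM) but 6.89 CPM of MIR133A1HG, more than knockdown replicates 3 to 5. Control replicate 3 had the lowest control sum (25200 CPM) but 11.6 CPM of MIR133A1HG, below only control replicate 2. The part of the cardiomyocyte content in the change of these hosts was not tested.

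The other cardiac microRNA genes sit inside myosin heavy chain genes, which code for protein and are not among the 37. MYH6, the alpha heavy chain and host of miR-208a, was 3.47-fold lower, at 2850 ± 1300 CPM in knockdown and 9880 ± 1070 CPM in control libraries (SD, n = 5 each). MYH7, the beta heavy chain and host of miR-208b, was 2.93-fold lower (log2 fold change -1.55 ± 0.493, adjusted p = 0.012) and -2.32 without knockdown replicate 2, which alone reached 2480 CPM. With all genes of at least 1 count tested its adjusted p was 0.066. MYH7B, host of miR-499a, had 168 ± 26.6 CPM in knockdown and 183 ± 27.7 CPM in control libraries and did not pass the test (adjusted p = 0.42), although it was called lower without knockdown replicates 1 and 2 (log2 fold change -0.26).

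MIR302CHG (ENSG00000249532, chr4:112646476-112650051, minus strand) carries miR-302a to miR-302d and miR-367, the cluster typical of human embryonic stem cells. It had 2.61, 1.68, 3.04, 3.57 and 2.90 CPM in knockdown libraries and 0.866, 0.534, 0.746, 0.619 and 0.457 CPM in controls. The groups did not overlap and the gene was 4.26-fold higher (log2 fold change 2.09 ± 0.239, adjusted p = 5.3e-06). Of its exonic bases 56.7% lie opposite exons of LARP7, a gene expressed at 51.2 ± 3.70 CPM in knockdown and 45.2 ± 3.45 CPM in control libraries (adjusted p = 0.064). LARP7 was called higher under 5 of the 20 alternatives, with DESeq2 (adjusted p = 0.014) or its size factors (0.032), a mean of at least 1 CPM (0.015), upper-quartile factors (0.00066) and without knockdown replicate 4 (0.039). The library kit keeps strand, but the strand setting of the counting is not given in the sources used here. It is therefore not known whether reads of genes on opposite strands were counted apart, and they may be shared. Among pluripotency markers LIN28A and DPPA4 were higher and TDGF1 did not pass the test. The factors that define the pluripotent state were too low to test: POU5F1 had 16 counts over the knockdown and 19 over the control libraries, NANOG 2 and 4, and SOX2 23 and 6. The summed level of the 6 listed pluripotency markers was 3.87 to 6.15 CPM in knockdown and 0.942 to 1.7 CPM in control libraries, and its part in the MIR302CHG result was not tested.

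MIR17HG (ENSG00000215417, chr13:91347686-91397592, plus strand) carries 6 microRNAs from miR-17 to miR-92a-1 within exons and is a known target of MYC. Its levels were 7.71, 9.10, 7.33, 6.18 and 5.99 CPM in knockdown and 2.93, 3.09, 3.52, 3.47 and 3.17 CPM in control libraries. No value of one group reached the other, and the gene was 2.25-fold higher (log2 fold change 1.17 ± 0.137, adjusted p = 6.4e-06). A lncRNA gene without a symbol, ENSG00000292285, faces 20.5% of its exonic bases on the opposite strand but averaged only 0.210 CPM in knockdown and 0.00974 CPM in control libraries. MCM7, a subunit of the replicative helicase that hosts the related miR-106b, miR-93 and miR-25, had 98.3 ± 13.2 CPM in knockdown and 82.7 ± 8.69 CPM in control libraries and did not pass the test (log2 fold change 0.25 ± 0.110, adjusted p = 0.053). It was called higher under 9 of the 20 alternatives, among them DESeq2 (adjusted p = 0.03), the replicate block (0.036), upper-quartile factors (0.0044), and the fits without control replicate 5 (0.048), knockdown replicate 1 (0.04) or knockdown replicate 2 (0.011).

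MIR29B2CHG (ENSG00000203709, chr1:207760650-207879115, minus strand) is the host of miR-29b-2 and miR-29c, which are known to repress collagen mRNAs in cardiac fibroblasts. It was over the cut-off of 0.264 CPM in all 5 knockdown but only 3 control libraries, so it entered the test through the group in which it is high and its values are a description. Knockdown libraries had 9.11, 4.12, 10.2, 11.1 and 9.89 CPM, against 0.407, 0.139, 0.239, 0.619 and 0.381 CPM in controls. The lowest knockdown library, replicate 2, still exceeded the highest control, and the fitted difference was 24.7-fold (log2 fold change 4.63 ± 0.360). Its exons lie opposite those of CD46 and of the pseudogene CDCA4P4, and the overlaps, added gene by gene, come to 12.5% of its exonic bases. CD46, the complement regulator, was 1.45-fold higher, at 200 ± 21.0 CPM in knockdown and 138 ± 4.27 CPM in control libraries. CDCA4P4 had a log2 fold change of 6.10 ± 0.391, at 2.73 ± 0.771 CPM in knockdown and 0.0371 ± 0.0228 CPM in control libraries. Whether reads of this host and of the pseudogene were counted apart where they overlap is not known, so they may be shared. COL1A1 and COL3A1, collagen genes among the fibroblast markers, had mean levels of 371 and 351 CPM in the knockdown, against 377 and 625 CPM in the controls, and COL3A1 was called lower while COL1A1 did not pass the test. Of the 5 fibroblast and stroma markers tested 3 were lower and 2 did not pass, with summed levels of 684 to 820 CPM in knockdown and 999 to 1080 CPM in control libraries (6 listed), and their part in the MIR29B2CHG result was not tested.

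MIR670HG (ENSG00000235661, chr11:43569306-43570395, plus strand) rose 15.7-fold. It had 18, 11.9, 16.6, 15.9 and 13.1 CPM in knockdown and 0.662, 0.836, 1.04, 1.05 and 1.22 CPM in control libraries, far apart (log2 fold change 3.97 ± 0.183, adjusted p = 1.5e-08). It is the only tested host inside which the annotation places no microRNA gene. The nearest coding gene, TTC17, begins 210386 bases away and was 4.67-fold lower (log2 fold change -2.22 ± 0.147), at 14.7 ± 3.53 CPM in knockdown and 68.7 ± 4.15 CPM in control libraries.

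MIR4453HG (ENSG00000268471, chr4:152536264-152539263, plus strand) is a single-exon transcript whose exon contains the miR-4453 hairpin. Its levels were 32.9, 24.6, 41.7, 48.3 and 41.5 CPM in knockdown and 2.47, 2.60, 2.80, 2.88 and 2.18 CPM in control libraries. The gene was 14.6-fold higher without overlap (log2 fold change 3.87 ± 0.184, adjusted p = 1.6e-08). It starts 172 bases from FBXW7, the substrate receptor of a ubiquitin ligase, which is transcribed the other way. FBXW7 averaged 71.5 ± 12.0 CPM in knockdown and 55.9 ± 5.4 CPM in control libraries (log2 fold change 0.36 ± 0.120, adjusted p = 0.016), and that call was lost without control replicate 2 or without control replicate 5 (adjusted p = 0.054 in each case). The window around the host's start is shown because it also takes in the annotated start of FBXW7, a coding neighbour with a smaller fold change. It is RefSeq sequence of chr4:152536014-152536313 (GRCh38.p14, plus strand), 300 bases with 70.0% G or C and 29 CpG dinucleotides, and capitals mark the first 50 bases of the host transcript. Of the 250 bases in lower case, those 172 or more bases before the capitals belong to FBXW7, read on the opposite strand.
MIR4453HG start region: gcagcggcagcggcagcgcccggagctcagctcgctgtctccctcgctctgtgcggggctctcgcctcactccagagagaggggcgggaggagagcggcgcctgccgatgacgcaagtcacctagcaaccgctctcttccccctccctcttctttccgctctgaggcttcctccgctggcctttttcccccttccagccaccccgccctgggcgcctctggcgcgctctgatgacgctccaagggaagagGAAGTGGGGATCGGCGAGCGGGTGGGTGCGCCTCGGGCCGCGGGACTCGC

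Only the nearest coding gene of each host was searched for a close start site. In that search, starts within 1 kb of each other on opposite strands occurred in 3 other hosts, and their neighbours moved without a common direction. Hosts near the start of another coding gene may be missed. MIR3677HG starts 242 bases from RNPS1, a splicing regulator that was 2.45-fold higher, while the host did not pass the test (log2 fold change 0.37 ± 0.337, adjusted p = 0.32). MIR4733HG starts 523 bases from NF1, the neurofibromin tumour suppressor, which was 5.57-fold lower (29.8 ± 11.4 CPM in knockdown, 166 ± 5.41 CPM in control libraries). The host itself was 1.60-fold higher, at 1.01 ± 0.212 CPM in knockdown and 0.627 ± 0.0783 CPM in control libraries (adjusted p = 0.0072), and 29.1% of its exonic bases lie opposite NF1 exons. MIR22HG starts 651 bases from WDR81, which had 35.3 ± 2.48 CPM in knockdown and 30.5 ± 4.39 CPM in control libraries (adjusted p = 0.08).

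MIR23AHG (ENSG00000267519, chr19:13823880-13842928, minus strand) carries miR-23a, miR-27a and miR-24-2, a cluster tied in mice to cardiac hypertrophy and muscle atrophy. It had 55.9, 42.6, 56.5, 62.7 and 52.5 CPM in knockdown libraries and 9.52, 8.94, 9.52, 8.11 and 6.95 CPM in controls. The gene was 6.28-fold higher (log2 fold change 2.65 ± 0.126, adjusted p = 1.6e-08). ZSWIM4, on the opposite strand along 12.1% of its exonic bases, went the other way and was 2.46-fold lower, at 6.09 ± 0.803 CPM in knockdown and 15 ± 1.59 CPM in control libraries.

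**Figure D3:**
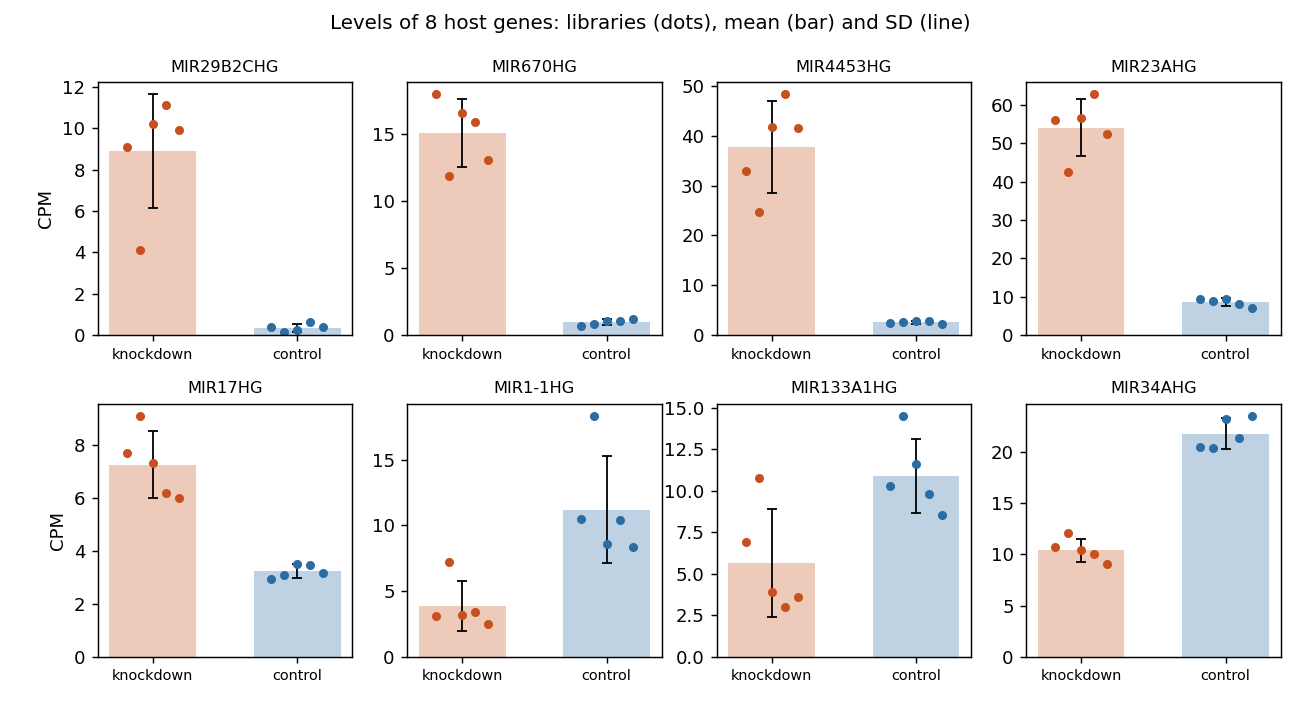
Levels in CPM of 8 host genes, with knockdown left and control right in each panel; dots are libraries, bars the means and lines the SD of 5 libraries. MIR29B2CHG, MIR670HG, MIR4453HG and MIR23AHG stand far above their controls, MIR1-1HG and MIR34AHG lie below theirs, and in MIR133A1HG knockdown replicate 2 reaches the control range.

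The hosts related to the miR-15 family did not share a direction. MIR497HG (ENSG00000267532, chr17:7015818-7019659, minus strand) carries miR-195 and miR-497, whose shared seed is that of the miR-15 family, linked in mouse hearts to the exit of cardiomyocytes from the cell cycle. It had 15.6, 12.4, 25.4, 27.3 and 23.0 CPM in knockdown libraries and 3.46, 3.39, 4.86, 4.20 and 4.37 CPM in controls. The lowest value of the knockdown was above the highest control (log2 fold change 2.35 ± 0.217, 5.11-fold, adjusted p = 9.8e-07). Its overlaps with opposite exons of C17orf49 and of the readthrough gene RNASEK-C17orf49, added gene by gene, come to 54.2% of its exonic bases. Bases that face both genes are counted for each, so the share of distinct bases may be smaller. Without the strand setting of the counting, it is not known whether their reads were counted apart, and the host's value may include theirs. C17orf49 was itself higher, at 66.1 ± 20.8 CPM in knockdown and 19.3 ± 1.76 CPM in control libraries (log2 fold change 1.77 ± 0.199). RNASEK-C17orf49 was higher too, at 21.1 ± 10.8 CPM in knockdown and 4.36 ± 0.71 CPM in control libraries (log2 fold change 2.27 ± 0.342, close to that of the host). MIR503HG, host of miR-503, was 2.83-fold higher, at 7.5 ± 1.67 CPM in knockdown and 2.64 ± 0.428 CPM in control libraries (SD, n = 5 each; log2 fold change 1.5 ± 0.180, adjusted p = 7.9e-06). SMC4, the condensin subunit whose gene hosts miR-15b and miR-16-2, was 2.39-fold lower, with 33.1 ± 8.53 CPM in knockdown and 79.0 ± 6.46 CPM in control libraries.

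Hosts known as stress-responsive transcripts differed among themselves. MIR34AHG (ENSG00000228526, chr1:9148011-9198906, minus strand), host of miR-34a and a known target of p53, had 10.7, 12.1, 10.4, 10 and 9.04 CPM in knockdown and 20.5, 20.4, 23.2, 21.4 and 23.5 CPM in control libraries. It was 2.09-fold lower without overlap (log2 fold change -1.06 ± 0.0960, adjusted p = 8.1e-07). MIR22HG, host of miR-22, a microRNA enriched in heart and skeletal muscle, had 28.2, 33.5, 32.7, 35.9 and 32.5 CPM in knockdown and 30.8, 33.8, 27.0, 27.9 and 20.2 CPM in controls. Those groups overlapped and the difference did not pass the test (log2 fold change 0.22 ± 0.127, adjusted p = 0.13). MIR210HG, whose microRNA miR-210 responds to low oxygen through HIF, had 2.82 ± 0.638 CPM in knockdown and 2.34 ± 0.398 CPM in control libraries (adjusted p = 0.18). With upper-quartile factors, which shift the median of all genes by 0.20, MIR22HG (log2 fold change 0.42, adjusted p = 0.0078) and MIR210HG (0.47, adjusted p = 0.026) would be called higher.

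MIR1915HG was among the more abundant hosts. Its levels were 31.1, 31.0, 45, 52.3 and 48.0 CPM in knockdown and 31.9, 36.8, 30, 32.1 and 37.2 CPM in control libraries. Knockdown replicates 1 and 2 lay within the control range and the other 3 above it, and the gene did not pass the test (log2 fold change 0.30 ± 0.152, adjusted p = 0.083). It passed without knockdown replicate 1 (0.40, adjusted p = 0.023), without replicate 2 (0.38, adjusted p = 0.014) and with upper-quartile factors (0.51, adjusted p = 0.012).

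MIR4435-2HG (ENSG00000172965, chr2:111006015-111523376, minus strand), also called MORRBID, represses the pro-apoptotic gene Bcl2l11 in mouse myeloid cells. It had 4.86, 7.44, 4.37, 4.36 and 4.98 CPM in knockdown libraries and 21.6, 21.2, 9.22, 15.1 and 12.4 CPM in controls, a wide spread among the controls but no overlap. It was 3.05-fold lower (log2 fold change -1.61 ± 0.240, adjusted p = 5.2e-05). BCL2L11, which encodes the BH3-only protein BIM and lies on the opposite strand within the host's span, was picked after its value was seen. It was higher by a log2 fold change of 1.76 ± 0.137 (adjusted p = 2.9e-07), at 46.1 ± 1.96 CPM in knockdown and 13.6 ± 2.99 CPM in control libraries. The host's overlaps with opposite exons of BCL2L11 and of lncRNA genes, added gene by gene, come to 3.52% of its exonic bases. Whether their reads were counted apart is not known. A link between host and BCL2L11 was not tested. ACOXL, another coding gene on the other strand that meets the host's span, was 4.07-fold lower, at 0.395 ± 0.133 CPM in knockdown and 1.63 ± 0.214 CPM in control libraries. All 4 listed smooth muscle markers were lower. They summed to 474 to 871 CPM in knockdown and 1150 to 2390 CPM in control libraries, and their part in the MIR4435-2HG value was not tested.

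A further 6 hosts had a mean of at least 1 CPM. MIR762HG was 4.63-fold higher, at 7.77 ± 2.36 CPM in knockdown and 1.67 ± 0.188 CPM in control libraries (log2 fold change 2.21 ± 0.209, adjusted p = 1.2e-06). Its overlaps with opposite exons of BCL7C and of a lncRNA gene, added gene by gene, come to 30.2% of its exonic bases. BCL7C was 2.50-fold higher, at 46.4 ± 12.2 CPM in knockdown and 18.5 ± 2.21 CPM in control libraries. Whether reads of MIR762HG and BCL7C were counted apart is not known, so the host's value may include those of BCL7C. MIR3936HG was 1.67-fold higher, at 4.36 ± 0.629 CPM in knockdown and 2.60 ± 0.436 CPM in control libraries (adjusted p = 0.00083). MIR3936HG lies within the region of SLC22A4 and SLC22A5, carnitine and organic cation transporter genes, of which SLC22A5 was lower (log2 fold change -0.85 ± 0.112) and SLC22A4 did not pass the test (adjusted p = 0.43). MIR1302-9HG was 2.27-fold higher, at 3.18 ± 0.583 CPM in knockdown and 1.40 ± 0.294 CPM in controls (adjusted p = 7.4e-05). Its value is uncertain, since it belongs to a family of near-identical copies at chromosome ends and reads of such copies can be split or lost in counting.

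The remaining ones of these moved little. MIR600HG was 1.32-fold lower, at 7.19 ± 1.18 CPM in knockdown and 9.52 ± 0.530 CPM in control libraries (adjusted p = 0.0084, but 0.094 with upper-quartile factors), and shares exonic bases on its own strand with STRBP. STRBP did not pass the test (log2 fold change -0.20 ± 0.141), but was called lower without knockdown replicate 2 (-0.35, adjusted p = 0.005). MIR130AHG was 1.66-fold lower, at 2.02 ± 0.160 CPM in knockdown and 3.34 ± 0.466 CPM in control libraries (adjusted p = 0.00034), although CLP1, which shares 3.16% of its exonic bases on the same strand, was higher by a log2 fold change of 1.44 ± 0.166. MIR9-1HG was 1.36-fold higher with overlap, at 3.17 ± 0.613 CPM in knockdown and 2.33 ± 0.178 CPM in control libraries (adjusted p = 0.018), a call lost without control replicate 2 (adjusted p = 0.054) and with all genes of at least 1 count tested (adjusted p = 0.069). It hosts miR-9-1, of a family typical of the developing nervous system.

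Other families with several hosts were compared within libraries. MIR9-3HG, which gives the same mature miR-9, was over the cut-off of 0.264 CPM in 4 control libraries but only 1 knockdown library. It thus entered the test mainly through the controls, and its values are a description. It had 0.138 ± 0.0982 CPM in knockdown and 0.485 ± 0.257 CPM in control libraries (fitted log2 fold change -1.73 ± 0.488, 3.31-fold lower). The groups overlapped, with only 29 counts over the knockdown against 95 over the control libraries. Without knockdown replicates 1 and 2 its log2 fold change was -2.58. The log2 ratio of MIR9-1HG to MIR9-3HG was 4.59 ± 1.02 in knockdown and 2.40 ± 0.86 in control libraries (SD, n = 5 each). The difference was 2.19, and it too is a description, since MIR9-3HG is part of the ratio. This pair too was chosen after the levels had been seen, and its ratio rests on the few counts of MIR9-3HG. Of the neural markers TUBB3 was higher, STMN2 did not pass the test, and SOX1 and PAX6 were near 0, with 1 and 14 counts over the knockdown against 8 and 6 over the control libraries. The 4 neural markers summed to 50.2 to 73.3 CPM in knockdown and 21.3 to 36.9 CPM in control libraries, and their part in the MIR9 values was not tested.

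The hosts of miR-181, microRNAs best known from lymphocytes, were both higher. MIR181A1HG was 4.59-fold higher, at 1.60 ± 0.398 CPM in knockdown and 0.341 ± 0.124 CPM in control libraries (fitted log2 fold change 2.20 ± 0.266). MIR181A2HG was 3.74-fold higher, at 1.57 ± 0.193 CPM in knockdown and 0.414 ± 0.13 CPM in control libraries (fitted log2 fold change 1.90 ± 0.226). Each was over the cut-off of 0.264 CPM in all 5 knockdown but only 4 control libraries, so that both entered the test through the knockdown. Their values are a description. Their log2 ratio was 0.00 ± 0.30 in the knockdown and -0.27 ± 0.52 in the controls (exact permutation, two-sided p = 0.365). Of the 4 blood markers SPI1 was higher and the others were too low to test, PTPRC with 5 counts over the knockdown and 12 over the control libraries and GATA1 with 0 and 9. Their summed level was 0.752 to 1.51 CPM in knockdown and 0.372 to 0.686 CPM in control libraries, and its part in the miR-181 host values was not tested.

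The hosts with a mean under 1 CPM numbered 12, of which 5 were higher and 3 lower. MIR194-2HG, host of miR-194-2 and miR-192, had 24 to 38 counts in each knockdown and 2 to 6 in each control library (fitted log2 fold change 3.12 ± 0.293). MIR378D2HG had 21 to 33 counts in each knockdown and 1 to 5 in each control library (fitted log2 fold change 3.00 ± 0.372). Both were over the cut-off of 0.264 CPM in all 5 knockdown and 0 control libraries, so they were tested only because they are high in the knockdown, and their values are a description. MIR122HG, whose miR-122 is the main microRNA of liver, had 0 to 12 counts in each knockdown and 26 to 37 in each control library. It entered the test through the controls, with 1 knockdown library over the cut-off. Its fitted log2 fold change was -2.65 ± 0.536, and the value was -3.63 without knockdown replicates 1 and 2 and -3.42 in limma-voom.

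MIR924HG spans 593 kb. It had 2 to 11 counts in each knockdown and 19 to 42 in each control library (fitted log2 fold change -1.74 ± 0.321), and it too entered the test through the controls, with 2 knockdown libraries over the cut-off. Among the endoderm markers APOA1 was higher and SOX17 did not pass the test, while AFP had 5 counts over the knockdown and 8 over the control libraries and TTR 1 and 0. The 5 endoderm markers summed to 10.8 to 19.8 CPM in knockdown and 5.44 to 6.93 CPM in control libraries, and their part in the MIR122HG value was not tested. The 4 hosts under 1 CPM that did not pass were MIR193BHG (-0.40), MIR222HG (-0.33), MIR3677HG (0.37) and MIR155HG (0.43), all on the log2 fold change scale and all with overlapping groups. MIR193BHG passed without control replicate 1 (-0.59, adjusted p = 0.017) and MIR3677HG without control replicate 5 (0.72, adjusted p = 0.038).

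Knockdown replicate 2 was the library nearest the controls in 15 of the 19 higher hosts and in 8 of the 11 lower ones. Without it 20 hosts were higher and 11 lower, and the same counts were found without replicates 1 and 2 together, an alternative chosen after the data had been seen.

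Hosts differ widely in span, the length of the annotated gene with its introns. Across the 37 hosts the log2 fold change and the span had a Spearman rho of -0.365, beside -0.336 over 4330 other lncRNA genes and -0.599 over 14777 protein-coding genes. These are descriptions across genes, which share the same libraries and are not independent replicates. Above 300 kb, MIR99AHG, MIR4435-2HG and MIR924HG were lower while MIR100HG was higher. In that class of span 19 of 84 other lncRNA genes and 12 of 696 coding genes were higher, with medians of -0.77 and -2.09. MIR29B2CHG and MIR181A1HG, of 118 and 160 kb, were higher, in a class in which 79 of 254 other lncRNA genes and 165 of 2434 coding genes were higher. Of the 4 hosts up to 3 kb 3 were higher (MIR4453HG, MIR670HG and MIR378D2HG) and MIR210HG did not pass. MIR29B2CHG, MIR181A1HG and MIR378D2HG entered the test through the knockdown and MIR924HG through the controls, so their place beside these shares is a description.

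**Figure D4:**
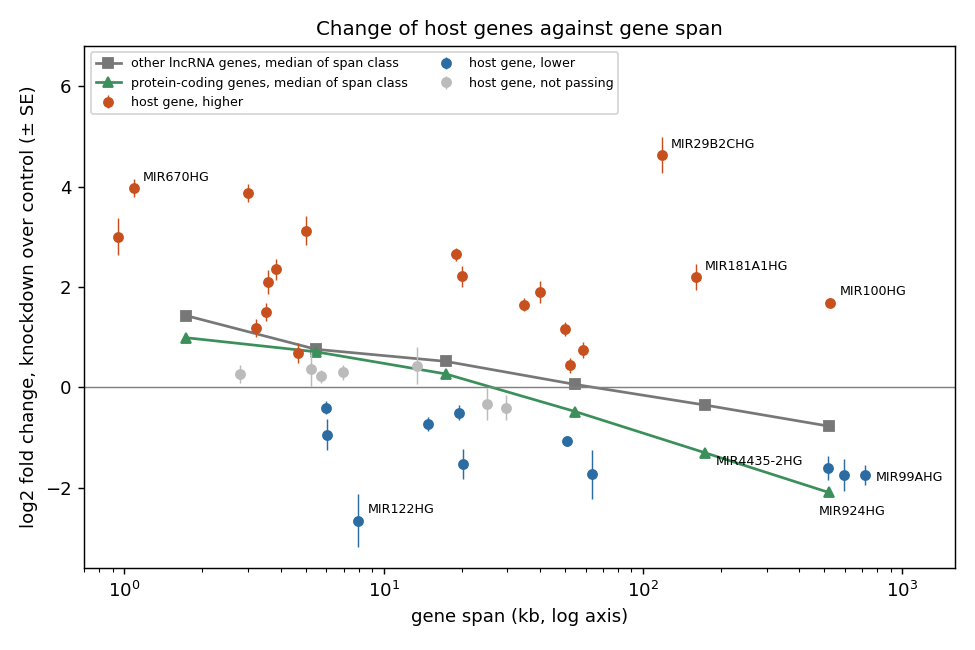
Log2 fold change (knockdown over control, with SE) of the 37 host genes against gene span in kb on a log axis, coloured by call, with lines for the medians of other lncRNA genes (squares) and of protein-coding genes (triangles) in 6 classes of span. Both lines fall with span, to -0.77 and -2.09 above 300 kb, where MIR100HG lies at 1.69 and the other 3 hosts between -1.75 and -1.61.

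The position of the microRNA was also set beside the change. Of the 64 microRNA genes inside tested hosts 38 lie in exons and 26 in introns, and 17 hosts hold several. Hosts with exonic microRNAs only were higher in 11 of 18 cases and lower in 5 (median log2 fold change 1.18). Hosts with intronic microRNAs only were higher in 7 of 16 cases and lower in 5 (median 0.29). The difference between these classes was not tested. The microRNAs themselves are outside what the table measures: all 129 microRNA genes inside the 81 hosts had 0 counts, and of 1879 microRNA genes counted 2 had any count, at most 5 in total. Levels of mature microRNAs therefore cannot be read from these libraries, and every value above is of the long host transcript.

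The machinery that turns host transcripts into microRNAs changed in both directions as well. Of 32 listed genes, all tested, 12 were higher, 15 lower and 5 did not pass (84.4% called, median log2 fold change -0.05, beside 79.7% and 0.01 over all tested genes). Their median span was 57.2 kb, beside 33.9 kb for all tested coding genes. The lower genes spanned 5.64 kb (RAN) to 440 kb (SND1). The higher ones spanned 5.51 kb (TARBP2) to 147 kb (LIN28B). Among tested coding genes 2014 of 2434 with spans of 100 to 300 kb were lower, and 650 of 696 above 300 kb. The part of span in the changes of the listed genes was not tested. In the nucleus both Microprocessor subunits were lower. DROSHA, the RNase III enzyme, had 20.1, 27.5, 20.3, 13.5 and 18.9 CPM in knockdown and 50.2, 50.6, 52.2, 53.2 and 55.6 CPM in control libraries, 2.61-fold lower (adjusted p = 3.4e-06). DGCR8, its RNA-binding partner, was 2.18-fold lower (adjusted p = 0.0001). In contrast SRRT (ARS2), which links the cap-binding complex to primary microRNA processing, had 342, 261, 503, 525 and 485 CPM in knockdown and 92.0, 88.7, 91.3, 85.4 and 87.6 CPM in control libraries, 4.75-fold higher (adjusted p = 3.3e-07). The helicase DDX5 was 2.07-fold higher and KHSRP, which binds some primary transcripts and let-7 precursors, 1.83-fold higher.

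The genes of export and DICER1 moved less. XPO5, the export receptor, was 1.21-fold lower (adjusted p = 0.009) and RAN, its GTPase, 1.5-fold lower (adjusted p = 1.5e-05). DICER1 had 137 ± 11.9 CPM in knockdown and 134 ± 3.65 CPM in control libraries and did not pass the test (adjusted p = 0.71). Its partner TARBP2 was 3.27-fold higher, at 54.6 ± 17.3 CPM in knockdown and 16.7 ± 0.919 CPM in control libraries.

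The Argonaute genes were split. AGO1 was 2.62-fold higher, at 191 ± 30.5 CPM in knockdown and 73.2 ± 8.11 CPM in control libraries (adjusted p = 6.3e-07). AGO2, the Argonaute that can cut its target, had 39.8, 59.4, 32.9, 28.4 and 33.9 CPM in knockdown and 159, 152, 173, 162 and 156 CPM in control libraries, 4.12-fold lower (adjusted p = 5.3e-07). AGO3 was 4.44-fold lower (adjusted p = 1.8e-07) and AGO4 1.53-fold lower with overlapping groups. The scaffold genes TNRC6A, TNRC6B and TNRC6C, whose proteins link Argonaute to mRNA decay, were 3.10-fold, 3.16-fold and 3.53-fold lower.

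Regulators of let-7 maturation act on the products of the hosts with the GAGGUAG seed. LIN28B, which binds let-7 precursors and blocks their maturation, had 42.8, 42.8, 44, 43.7 and 34.5 CPM in knockdown and 12.4, 9.67, 12.6, 12.4 and 11.1 CPM in control libraries. It was 3.57-fold higher (adjusted p = 4.4e-08) with no overlap. LIN28A, its paralog in early embryonic cells, was 9.67-fold higher at a low level, 2.51 ± 0.373 CPM in knockdown and 0.258 ± 0.166 CPM in control libraries (adjusted p = 1.5e-06). DIS3L2, the exonuclease that degrades the let-7 precursors tailed after LIN28 binding, was 5.15-fold lower, at 5.76 ± 1.76 CPM in knockdown and 29.8 ± 0.806 CPM in control libraries (adjusted p = 1.5e-07). TUT4, a tailing enzyme, did not pass the test (adjusted p = 0.52), and its relative TUT7 was 1.98-fold lower. PARN, a deadenylase, was 3.19-fold lower.

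**Figure D5:**
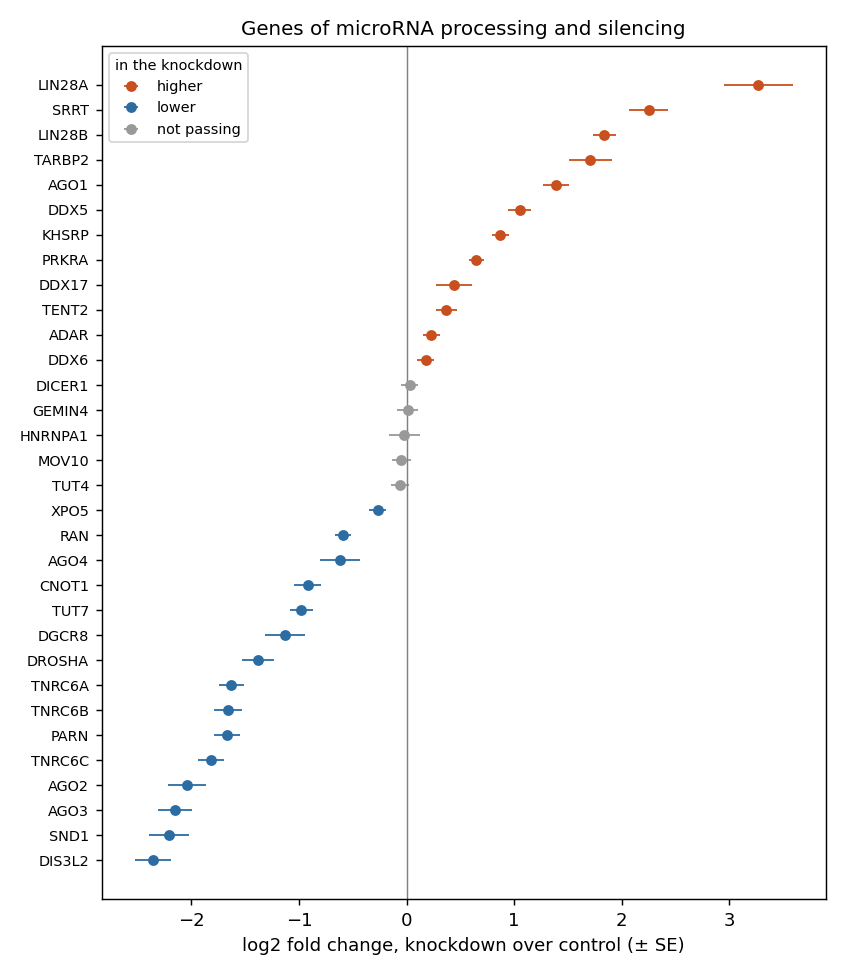
Log2 fold change (knockdown over control, with SE) of the 32 listed genes of microRNA processing and silencing, ordered by size and coloured by call. LIN28A (3.27), SRRT (2.25) and LIN28B (1.84) head the 12 higher genes, and DIS3L2 (-2.36), SND1 (-2.21), AGO3 (-2.15) and AGO2 (-2.04) end the 15 lower ones.

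Protein-coding genes that hold a microRNA gene were mostly lower. Of 824 tested ones 189 were higher and 530 lower (median log2 fold change -0.81), where all tested coding genes had 34.7% higher and 47.0% lower with a median of -0.22. Their median span of 63.1 kb exceeded the 33.9 kb of all tested coding genes and the 19.0 kb of the lncRNA hosts, and the part of span in that contrast was not tested. SREBF2, the sterol regulator that hosts miR-33a, was 5.43-fold lower, at 74.3 ± 29.4 CPM in knockdown and 404 ± 52.4 CPM in control libraries (adjusted p = 8.4e-07). SLIT3, a secreted guidance protein gene hosting miR-218-2, was 4.70-fold lower (61.4 ± 19.5 CPM in knockdown, 289 ± 23.1 CPM in control libraries). CTDSPL, host of miR-26a-1, was 6.0-fold lower. EGFL7, the endothelial host of miR-126, was 1.49-fold lower. It is itself among the 6 listed endothelial markers, of which KDR and TEK were also lower, VWF did not pass the test (log2 fold change 0.46 ± 0.335), and PECAM1 and CDH5 were too low to test. The 6 summed to 18 to 25.7 CPM in knockdown and 41.3 to 62.9 CPM in control libraries, and their part in the EGFL7 value was not tested. PANK1, host of miR-107, was 1.30-fold lower with overlap (adjusted p = 0.019), a call lost with upper-quartile factors (0.16), without knockdown replicate 3 (0.054) and without knockdown replicate 5 (0.055).

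The 30 hosts with counts that were not tested had at most 56 counts each over all 10 libraries, and none averaged 1 CPM. Their counts are given without a test, and the following were picked after seeing them. MIR202HG had 34 counts over the knockdown and 3 over the control libraries. MIR200CHG, host of the epithelial miR-200c and miR-141, had 21 and 4. MIR142HG, host of the blood-cell miR-142, had 14 counts over the knockdown and 3 over the control libraries. In the other direction MIR325HG had 3 counts over the knockdown and 24 over the control libraries, MIR2052HG 3 and 27, and MIR4280HG 1 and 17. The 14 hosts at 0 in all libraries include MIR124-2HG, MIR205HG and MIR223HG, known from neurons, epithelia and myeloid cells. A count of 0 allows a level of up to 0.0666 to 0.0912 CPM before scaling, depending on the library.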

How the data were processed

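Per the labels' protocols and the submitters' processing notes, the authors removed ribosomal RNA, made stranded total RNA libraries, used Trim Galore 0.65 for trimming, STAR 2.7.0 for alignment to GRCh38 with GENCODE release 38, and HTSeq for counting. The HTSeq version is not given in the sources used here, nor is its strand setting. The deposited table holds raw counts per gene, not normalised. Its columns were matched to the labels through the sample titles, and 0 columns were left unmapped.

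Names, spans and exons came from GENCODE release 44, which matched 61481 of 78932 identifiers. The 17451 unnamed ones were kept, of which 1060 were tested. Counts were filtered with filterByExpr, normalised (TMM) and tested by the two-sided quasi-likelihood test of edgeR 4.0.16 (robust dispersions) in R 4.3.3, on all 10 libraries with group as the only term. P-values were adjusted (Benjamini-Hochberg) over 21033 genes. The SE is the log2 fold change over the square root of F. Every pair of libraries differed by more than sampling noise, with a chi-square over degrees of freedom of at least 4.13. Normalisation assumes that most changes balance, so a change in RNA per cell is not measured.

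The members and gene lists were chosen with earlier results of these data known. Named genes were all hosts with a mean of at least 1 CPM, the 5 largest rises and falls among lower hosts, up to 6 higher and 6 lower pathway genes by p, 10 listed coding hosts, and the neighbours and overlapping genes of hosts; BCL2L11 and the untested hosts were picked after their values were seen, as were the other pathway genes described. Alternatives were DESeq2 1.42.0 and its size factors, upper-quartile factors, limma-voom (limma 3.58.1), other count filters, no robust dispersion, no mitochondrial genome genes, the replicate number as a block, and libraries left out. The test was tried on simulated data. Figures were drawn with matplotlib 3.10.9.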

Additional observations from a re-analysis of the deposited data

Results flagged for a closer look

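In each group of 5 libraries of 78 named genes, 156 groups in all, the most extreme library was set against the rest by Dixon's criterion (gap over range above 0.71), and 16 groups held a library that stood apart. Chance gives about 1 in 20 groups. Among the hosts, knockdown replicate 2 stood apart in MIR1-1HG (7.19 CPM, the others 2.52 to 3.42), MIR4435-2HG (7.44, the others 4.36 to 4.98) and MIR29B2CHG (4.12, the others 9.11 to 11.1). Control replicate 2 stood apart in MIR1-1HG (18.3 CPM, the others 8.37 to 10.5) and MIR181A1HG (0.558, the others 0.254 to 0.331). Control replicate 3 was high in MIRLET7A1HG (6.32 CPM, the others 4.97 to 5.30) and knockdown replicate 5 in MIR222HG (0.693, the others 0.425 to 0.454).

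Among the other named genes knockdown replicate 2 was the highest of its group in MYH7 (2480 CPM, the others 444 to 624), SREBF2 (126, the others 54.3 to 64.8), SMC4 (47.9, the others 27.5 to 32.6), DIS3L2 (8.82, the others 4.33 to 5.42), GPR157 (9.48, the others 4.79 to 5.98) and PLAC1 (0.234, the others 0.0279 to 0.0648). It was the lowest of its group in MEF2D (264 CPM, the others 298 to 309). LIN28B was low in knockdown replicate 5 (34.5 CPM, the others 42.8 to 44) and BCL7C in control replicate 3 (14.6, the others 19.0 to 20.2).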

How the results depend on the processing

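The numbers of called hosts (30, with 19 higher and 11 lower), of called genes (16773) and of called pathway genes (27) kept within 1.5 times under all 20 alternatives. Leaving out 1 library gave 29 to 31 called hosts (18 to 20 higher, 11 to 12 lower), 16361 to 17650 called genes and 24 to 27 pathway genes. Upper-quartile factors, which shift all genes by 0.20, gave 22 higher and 9 lower hosts. Deviations from the group means of same-numbered libraries had correlations of -0.17, 0.221, 0.105, -0.000432 and -0.0361. The value of replicate 2 (0.221) was the highest of all pairs of a knockdown and a control library. So few correlations cannot show whether the numbers pair the libraries, and the labels do not say. With the replicate block 30 hosts and 16425 genes were called, against 16773 genes without it. Of 729 values of single hosts under alternatives 716 kept direction and call, 5 lost the call, 8 gained it and none reversed. Reversals touched only coding genes that did not pass the test and lie near 0: MYH7B (0.08 with upper-quartile factors), WASHC1 (-0.02 to 0.09 leaving out 1 library, -0.05 without knockdown replicates 1 and 2), GPR157 (-0.15 without knockdown replicate 2 to 0.15, -0.20 without replicates 1 and 2) and PTPDC1 (0.00 with DESeq2 or its size factors, 0.03 with a mean of at least 1 CPM, 0.17 with upper-quartile factors, -0.13 to 0.03 leaving out 1 library). The causes were not tested. CTDSPL moved to -3.19 without knockdown replicates 1 and 2, and PLAC1 to -3.68 without replicate 2. Hosts under 1 CPM rest on few counts, which limits their precision.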
